A study of Mus musculus with 188 samples.

Results

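The 4 Hox clusters of the mouse genome were examined in single embryonic stem cells (ESCs) sorted during S phase. Each cluster was taken with 100 kb on each side, which gave 30 bins of 50 kb of the 45112 autosomal bins used in all. Hoxa lay on chromosome 6 (7 bins, 52050001 to 52400000 in mm10), Hoxb on chromosome 11 (9 bins, 96050001 to 96500000), Hoxc on chromosome 15 (7 bins, 102800001 to 103150000) and Hoxd on chromosome 2 (7 bins, 74550001 to 74900000). All 30 bins passed the filter on missing values. The bins of the clusters themselves, without flanks, numbered 3, 5, 3 and 3, and they held the starts of 39 protein-coding Hox genes, among them Hoxa13, Hoxb1, Hoxb13, Hoxc4, Hoxc13, Hoxd1 and Hoxd13.

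The study measured DNA copy number in single cells, since a region that has replicated is present in more copies than an unreplicated region of the same cell. The haploid line H129-2 came from the 129 strain, and the diploid line F121-9 was a hybrid of 129 and Castaneus, in which reads over sequence variants could be assigned to a homolog. Cells were sorted by DNA content into plates, and the DNA of each was amplified before sequencing. Both lines were grown in N2B27 medium with 2i and LIF and received no other treatment in the labels. Values of 75 haploid and 63 diploid S-phase cells were analysed, 138 in all. Each line was 1 cell line on 1 plate with no separate culture named, so the lines were compared without a test, a line and its plate cannot be told apart, and every SD is a spread over cells. The assay measured no RNA, so the ESC label could not be checked against marker genes.

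Hox genes encode homeodomain transcription factors that give cells their position along the body axis, and in each cluster the genes lie in the order in which they are used from head to tail. In ESCs the clusters are largely silent and covered by Polycomb proteins, and they are activated in sequence as the embryo grows its trunk. Replication timing is the order in which parts of the genome are copied during S phase. Early replication generally goes with open, gene-rich chromatin and late replication with gene-poor chromatin at the nuclear periphery.

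The clusters also hold 6 miRNA genes, and these show how closely related products come from clusters of different timing. RefSeq gives their mature sequences in GRCm38.p6, the assembly of mm10. The capitals mark the seed, bases 2 to 8 counted from the 5′ end.
miR-10a-5p (Hoxb, chr11:96317186-96317208, plus strand): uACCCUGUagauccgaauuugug
miR-10b-5p (Hoxd, chr2:74726074-74726096, plus strand): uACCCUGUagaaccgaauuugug
miR-196a-5p (Hoxb, chr11:96265187-96265208, plus strand): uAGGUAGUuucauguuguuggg
miR-196a-5p (Hoxc, chr15:102973365-102973386, plus strand): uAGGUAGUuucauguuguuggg
miR-196b-5p (Hoxa, chr6:52230129-52230150, minus strand): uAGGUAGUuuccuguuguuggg
miR-10a-5p and miR-10b-5p shared the seed and differed by the substitution U12A, the base of miR-10a-5p given first. miR-196a-5p and miR-196b-5p shared another seed and differed by A12C. The mature miR-196a-5p sequences of Mir196a-1 in Hoxb and Mir196a-2 in Hoxc did not differ.

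Promoters of 5 of the 7 genes named above were listed in RefSeq, as 250 bases before and 50 bases after the gene start. Those of 3 genes are shown to set the posterior genes of early Hoxa and of later Hoxd beside a gene of Hoxb, with every CG in capitals. Hoxb13 and Hoxc13 had no entry.
Hoxa13 (chr6:52260831-52261130, minus strand): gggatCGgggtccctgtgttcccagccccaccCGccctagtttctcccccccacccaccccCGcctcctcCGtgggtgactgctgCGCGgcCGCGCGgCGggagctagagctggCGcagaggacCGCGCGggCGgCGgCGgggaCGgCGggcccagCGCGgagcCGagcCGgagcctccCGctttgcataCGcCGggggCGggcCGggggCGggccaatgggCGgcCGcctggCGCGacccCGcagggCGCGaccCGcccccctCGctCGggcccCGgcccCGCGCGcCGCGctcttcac
Hoxb1 (chr11:96365508-96365807, plus strand): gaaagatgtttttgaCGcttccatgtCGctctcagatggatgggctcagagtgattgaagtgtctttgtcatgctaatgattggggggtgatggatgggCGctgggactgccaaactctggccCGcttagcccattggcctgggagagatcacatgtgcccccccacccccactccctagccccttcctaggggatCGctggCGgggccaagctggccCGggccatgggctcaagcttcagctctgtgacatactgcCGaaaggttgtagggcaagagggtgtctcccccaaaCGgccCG
Hoxd13 (chr2:74667975-74668274, plus strand): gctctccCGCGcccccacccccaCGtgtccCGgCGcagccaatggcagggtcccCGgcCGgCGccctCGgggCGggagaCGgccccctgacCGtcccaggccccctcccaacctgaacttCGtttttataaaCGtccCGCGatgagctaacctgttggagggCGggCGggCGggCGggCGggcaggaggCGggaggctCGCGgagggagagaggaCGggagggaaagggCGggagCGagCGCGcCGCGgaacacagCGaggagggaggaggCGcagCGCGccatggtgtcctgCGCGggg
The Hoxa13 promoter held 45 CG dinucleotides, a number reached or passed by 1.93% of all 32851 promoters of this length. The Hoxd13 promoter held 37, reached by 5.58%, and the Hoxb1 promoter held 10, reached by 43.5%. The promoters of Hoxd1 and Hoxc4 held 29 and 9. Of the 39 Hox genes 22 had a listed promoter, 9 of them in Hoxa, 3 in Hoxb, 1 in Hoxc and 9 in Hoxd. Over these 22 the median was 13.5 CG, against 7 over all promoters, and 18 of the 22 reached that median.

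The timing of the clusters was described first. The scheduled time of a bin is its rank in the mean smoothed score of all cells, placed on an S phase of 10 h, so that a bin at 1 h is earlier than 9 in 10 of all bins. Hoxa, Hoxb and Hoxc were scheduled early and Hoxd near the middle of S phase. The median over bins was 1.17 h for Hoxb (0.822 to 2.22 h), 1.45 h for Hoxa (1.15 to 2.09 h), 1.66 h for Hoxc (0.986 to 2.19 h) and 4.69 h for Hoxd (4.42 to 4.87 h). Ranked within each single cell, the clusters had SDs of 1.65 h for Hoxb, 1.84 h for Hoxa, 2.09 h for Hoxc and 1.90 h for Hoxd over the 138 cells. The first 3 clusters in this order therefore lay closer together than the spread over cells, whereas Hoxd followed Hoxc by more than the SD of either. The authors smoothed each cell over 15 windows (750 kb) and fitted segments of at least 5 windows (250 kb), so the bins of a cluster are not independent values.

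Measured per gene, at the bin holding the gene start, all 39 Hox genes fell in the first 5 h, and 28 in the first 2 h. Of 19345 autosomal protein-coding genes with a value, 80.2% fell in the first 5 h and 40.6% in the first 2 h, with a median of 2.52 h. Thus 30.1% of those genes were scheduled before Hoxa, 24.1% before Hoxb and 34.1% before Hoxc, but 77.6% before Hoxd. The 39 genes shared 13 bins, and 9 of them lay in Hoxd.

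The lines ordered the early clusters differently. In the schedule of haploid cells alone, Hoxb came first at 0.234 h (0.170 to 0.783 h over bins), then Hoxc at 2.08 h (0.833 to 2.51 h), Hoxa at 2.22 h (1.94 to 2.82 h) and Hoxd at 4.95 h (4.61 to 5.24 h). In diploid cells alone, Hoxa came first at 0.933 h (0.734 to 1.51 h), then Hoxc at 1.64 h (1.32 to 2.09 h), Hoxb at 2.72 h (2.15 to 3.56 h) and Hoxd at 4.34 h (4.18 to 4.62 h). Hoxb was thus earlier in the haploid than in the diploid schedule, and the ranges of its 9 bins did not overlap between the lines, as in 13.3% of all stretches of 9 bins. The 7 bins of Hoxa did not overlap either, with the diploid bins earlier, as in 19.3% of all stretches of 7 bins, while those of Hoxc and Hoxd did. Smoothing makes such bins nearly 1 value, and the schedules of the lines rest on cells of unlike progress. The position of Hoxb depended on the level of its chromosome in each cell. When each chromosome was centered on its median in each cell, Hoxb moved from 1.17 to 2.87 h, and Hoxa, Hoxc and Hoxd to 1.04, 1.55 and 4.85 h.

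**Figure D1:**
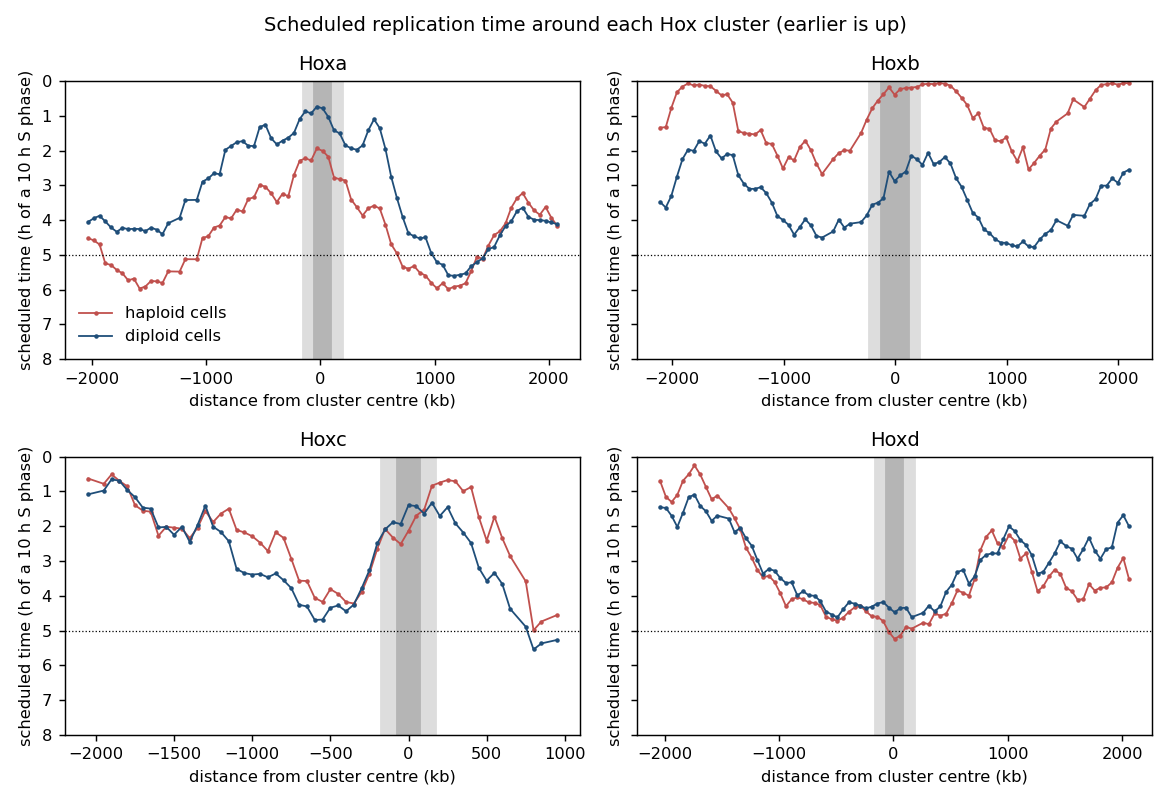
Scheduled time in h of a 10 h S phase (earlier is up) against the distance in kb from the centre of each cluster, for haploid (red) and diploid (blue) cells; dark shading marks the bins of the cluster, light shading its flanks and the dotted line 5 h. Hoxa sits on the earliest point of its window in both lines, and Hoxb is earlier in haploid cells over the whole window. In haploid cells Hoxd lies in a dip that reaches 5.24 h, while the latest diploid bin of its window lies outside the region.

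Values of the named genes followed those of their clusters. Hoxa13 (chr6:52257694-52260880) is the posterior end of Hoxa and acts in limb and urogenital development. It was scheduled at 1.46 h, and 66 of 75 haploid and 61 of 63 diploid cells had replicated its bin. Its score was 0.392 ± 0.437 (SD, n = 74) in haploid and 0.642 ± 0.432 (SD, n = 63) in diploid cells. The score is relative within a cell, with positive values for copy number above the center of that cell, and n counts the cells with a score in that bin.

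In Hoxb, Hoxb1 (chr11:96365752-96368256) is the anterior end and acts in the hindbrain, and Hoxb13 (chr11:96194316-96197447) is the posterior end, set apart from the other genes, and acts in the tail and the prostate. Hoxb1 was scheduled at 1.11 h and Hoxb13 at 1.72 h. The bin of Hoxb1 was replicated in 74 haploid and 59 diploid cells, and that of Hoxb13 in 75 and 57. The haploid score of Hoxb1 was 0.687 ± 0.439 (SD, n = 67) and the diploid score 0.404 ± 0.349 (SD, n = 61). For Hoxb13 these were 0.633 ± 0.416 (n = 75) and 0.286 ± 0.390 (n = 63). The difference between the ends of the cluster was smaller than the SD over cells in each line. Both ends were scored in the same cells, so this SD is not the spread of the difference within cells, which was not computed.

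In Hoxc, Hoxc4 (chr15:103018934-103036852) is the anterior end, and Hoxc13 (chr15:102921103-102928814) is the posterior end and acts in hair and nails. Hoxc4 was scheduled at 1.51 h and Hoxc13 at 2.19 h. Their bins were replicated in 74 and 73 haploid cells and in 59 and 58 diploid cells. The diploid scores had the widest spread of the named genes, at 0.577 ± 0.607 for Hoxc4 (SD, n = 58) and 0.502 ± 0.583 for Hoxc13 (SD, n = 62). In haploid cells they were 0.441 ± 0.442 (n = 73) and 0.355 ± 0.471 (n = 75).

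In Hoxd, Hoxd1 (chr2:74762980-74765142) is the anterior end, and Hoxd13 (chr2:74668310-74671599) is the posterior end and acts in the digits. They were scheduled at 4.75 and 4.69 h, and the latest Hox genes were Hoxd3, Hoxd4 and Hoxd8, which share a bin at 4.87 h. In haploid cells Hoxd13 was at 5.04 h and Hoxd1 at 5.15 h, and all 9 Hoxd genes were past 5 h. In diploid cells Hoxd13 was at 4.34 h and Hoxd1 at 4.36 h. The bin of Hoxd13 was replicated in 50 haploid and 50 diploid cells, and that of Hoxd1 in 52 and 51. The haploid score of Hoxd13 was -0.0106 ± 0.493 (SD, n = 72) and the diploid score 0.106 ± 0.4001 (SD, n = 59).

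The miRNA genes took the time of their bins. Mir10a in Hoxb was scheduled at 1.17 h and Mir10b in Hoxd at 4.87 h, although their main products share a seed. Mir196a-1 in Hoxb was at 1.44 h, Mir196a-2 in Hoxc at 1.66 h and Mir196b in Hoxa at 1.24 h. In haploid cells alone, Mir10a was at 0.234 h and Mir10b at 5.24 h.

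Next, single cells were counted. A cluster was called replicated in a cell when over 50% of its bins were, taking the mean of both homologs in diploid cells. The count for Hoxa was 66 of 75 haploid cells (88%, exact binomial 95% interval 78.4% to 94.4%) and 63 of 63 diploid cells (100%, 94.3% to 100%). Hoxb was replicated in 74 haploid (98.7%, 92.8% to 99.97%) and 59 diploid cells (93.7%, 84.5% to 98.2%). Hoxc was replicated in 73 haploid (97.3%, 90.7% to 99.7%) and 59 diploid cells (93.7%, 84.5% to 98.2%). Hoxd was replicated in 51 haploid (68%, 56.2% to 78.3%) and 50 diploid cells (79.4%, 67.3% to 88.5%). These intervals cover counting error over cells only, and the read depth of each cell is unknown from these values. The haploid interval of Hoxd lay below those of the other 3 clusters, by a narrow margin for Hoxa. The diploid interval of Hoxd overlapped those of Hoxb and Hoxc.

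The lines were not sorted alike, so these shares also depend on how far the cells had progressed. The haploid cells had replicated between 24.6% and 88.6% of their autosomal bins (median 63.6%) and the diploid cells between 18.2% and 79.1% (median 56.6%). In cells with 40% to 60% replicated, the counts were 24 of 25 haploid and 45 of 45 diploid cells for Hoxa, 25 and 43 for Hoxb, and 25 and 44 for Hoxc. Hoxd had 14 of 25 haploid (56%) and 36 of 45 diploid cells (80%). Over all bins the median share of cells replicated was 56% in these haploid and 62.2% in these diploid cells. Above 60% Hoxd had 36 of 39 haploid (92.3%) and 14 of 14 diploid cells (100%). The median over all bins was 92.3% in these haploid and 82.1% in these diploid cells.

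Cells below 40% separated Hoxa from the other early clusters in the haploid line. Of 11 such haploid cells, 3 (27.3%) had replicated Hoxa, 10 Hoxb, 11 Hoxc and 1 Hoxd. Over all bins the median share replicated was 18.2% of these 11 cells. Their median Hoxa score was -0.155, with a range of -0.720 to 0.535, against 0.928 for Hoxc, with a range of 0.237 to 1.58. All 4 diploid cells below 40% had replicated Hoxa, 3 Hoxb, 3 Hoxc and none Hoxd, with a median over all bins of 25%. The 9 haploid cells with Hoxa unreplicated were all at or below 43.9% replicated, and 6 of them came from plate row A, which also held 9 of the 11 haploid cells below 40%. Without the 11 cells of row A, Hoxa was replicated in 95.3% of haploid cells. The part of the plate row in this result was not tested.

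**Figure D2:**
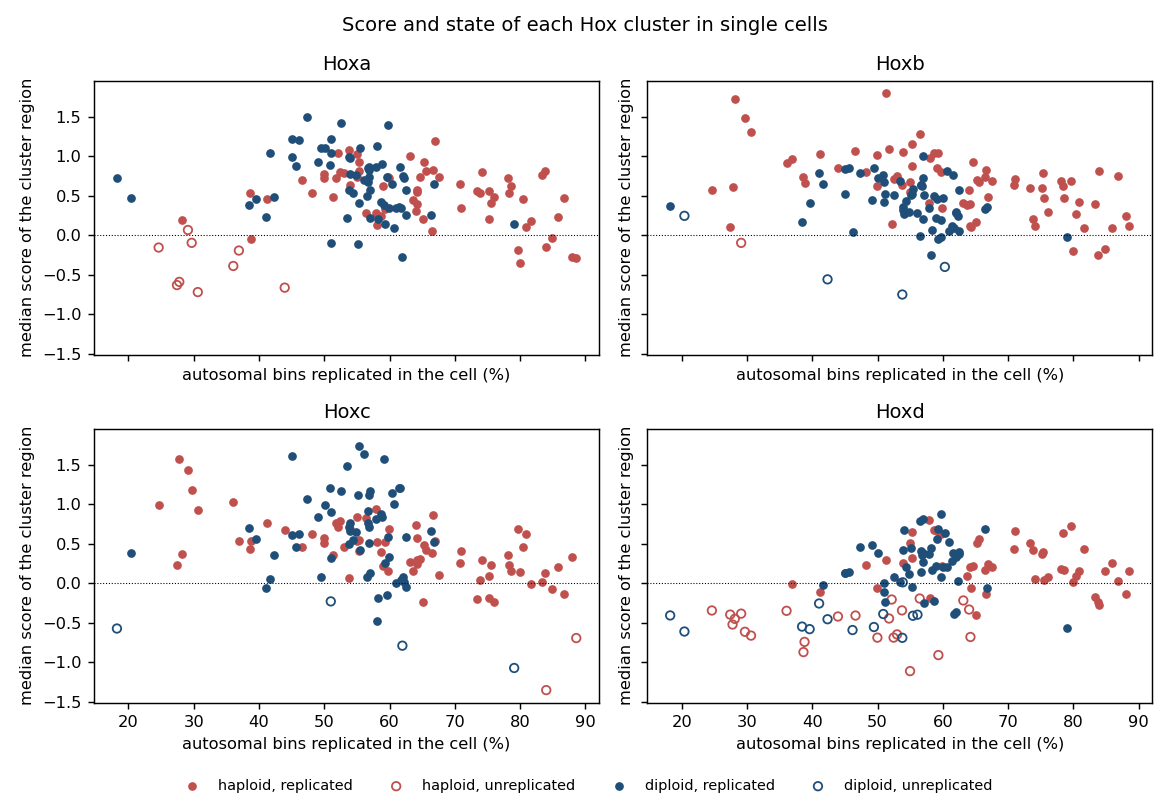
Median score of each cluster region against the percentage of autosomal bins replicated in the cell, for 75 haploid (red) and 63 diploid (blue) cells; filled points are replicated and open circles unreplicated by binarized state. Unreplicated Hoxa lies only in haploid cells up to 43.9%, unreplicated Hoxd reaches 64.2%, and unreplicated Hoxc includes cells at 79.1%, 84.0% and 88.6%.

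The order of the clusters within cells was counted by pairs. Hoxd was unreplicated with Hoxa replicated in 29 of 138 cells and the reverse held in 1. With Hoxb the counts were 33 and 1, and with Hoxc 36 and 5. Between Hoxa and Hoxb the direction differed by line, since in haploid cells 8 had Hoxb alone and none Hoxa alone, whereas in diploid cells 4 had Hoxa alone and none Hoxb alone. Between Hoxa and Hoxc, 9 haploid cells had Hoxc alone and 2 Hoxa alone, against none and 4 in diploid cells. The cells behind these counts were of unlike progress. Of the 9 haploid cells with Hoxa unreplicated, 8 lay below 40% replicated, where only 4 of the 63 diploid cells lay. The order was not compared between the lines at like progress. All 4 clusters were replicated in 94 cells (48 haploid and 46 diploid), and every cell had at least 1 replicated. The commonest incomplete pattern, Hoxa, Hoxb and Hoxc replicated without Hoxd, was found in 25 cells (16 haploid and 9 diploid). Hoxd had the lowest score of the 4 in 40 of 75 haploid and 35 of 63 diploid cells. Hoxb had the highest in 30 haploid but 4 diploid cells, and Hoxa in 26 haploid and 33 diploid cells.

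The progress at which a cluster turned from unreplicated to replicated was taken as the value that left the fewest cells on the wrong side. For Hoxd it was 42.8%, with 23 of 138 cells on the wrong side, at 54.4% in haploid cells alone (11 of 75) and 42.5% in diploid cells alone (8 of 63). For Hoxa it was 37.7% with 4 cells on the wrong side, and 37.8% in haploid cells alone, while in diploid cells no turn could be placed because all had replicated Hoxa. For Hoxc it was 19.3% with 5 cells on the wrong side, which rests on 1 diploid cell at 18.2%. For Hoxb no turn could be placed, since most cells at every progress had replicated it. Taken bin by bin, Hoxd bins had a median of 23 cells on the wrong side, equal to the median of 23 over the 4511 bins scheduled from 4 to 5 h. Hoxa, Hoxb and Hoxc bins had medians of 4, 5.5 and 5, against 5 for the 4511 bins scheduled from 1 to 2 h. The number of exceptions at each cluster was thus close to that of bins of like schedule.

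Cells off schedule were counted with a schedule that left out the cell itself. A cell was behind when its progress had passed the scheduled time of a cluster by more than 1 h and the cluster was not called replicated. This held for Hoxa in 9 of 136 cells (6.62%), Hoxb in 4 of 136 (2.94%), Hoxc in 5 of 135 (3.70%) and Hoxd in 4 of 71 (5.63%). Over all bins and cells the share was 6.11%. The 4 cells at Hoxb include diploid cell H10, in which 50% of the region was replicated. A cluster more than 1 h ahead of its schedule could be observed only for Hoxd, which was replicated in 1 of 11 such cells, haploid cell D12 at 36.9% replicated. All 9 behind cells of Hoxa and all 4 of Hoxd were haploid, and 6 of the 9 came from plate row A. These counts depended on the schedule, which was that of both lines. Against the schedule of its own line, a cell was behind at Hoxa in 3 of 130 cells (2.31%, all 3 haploid), at Hoxb in 4 of 136 (2.94%), at Hoxc in 5 of 129 (3.88%) and at Hoxd in 8 of 83 (9.64%, 4 in each line), with 5.85% over all bins.

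The cells behind at Hoxc ranged from 51.0% to 88.6% replicated. Hoxc was unreplicated in haploid cell G2 at 88.6% and haploid cell G5 at 84.0%, with scores of -0.694 and -1.35. It was also unreplicated in diploid cell A11 at 79.1% with a score of -1.07, diploid cell C3 at 62.0% with a score of -0.791 and diploid cell C2 at 51.0% with -0.230. In haploid cell G5 the region lay at percentile 1.66 of the bins of that cell and in diploid cell A11 at percentile 6.61. In each of G2, G5, A11, C3 and C2 the other 3 clusters were replicated, and in G2 and C2 part of the Hoxc region was replicated too. The behind cells had replicated 24.6% to 43.9% of their bins for Hoxa, 29.1% to 60.3% for Hoxb and 59.3% to 64.2% for Hoxd.

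**Figure D3:**
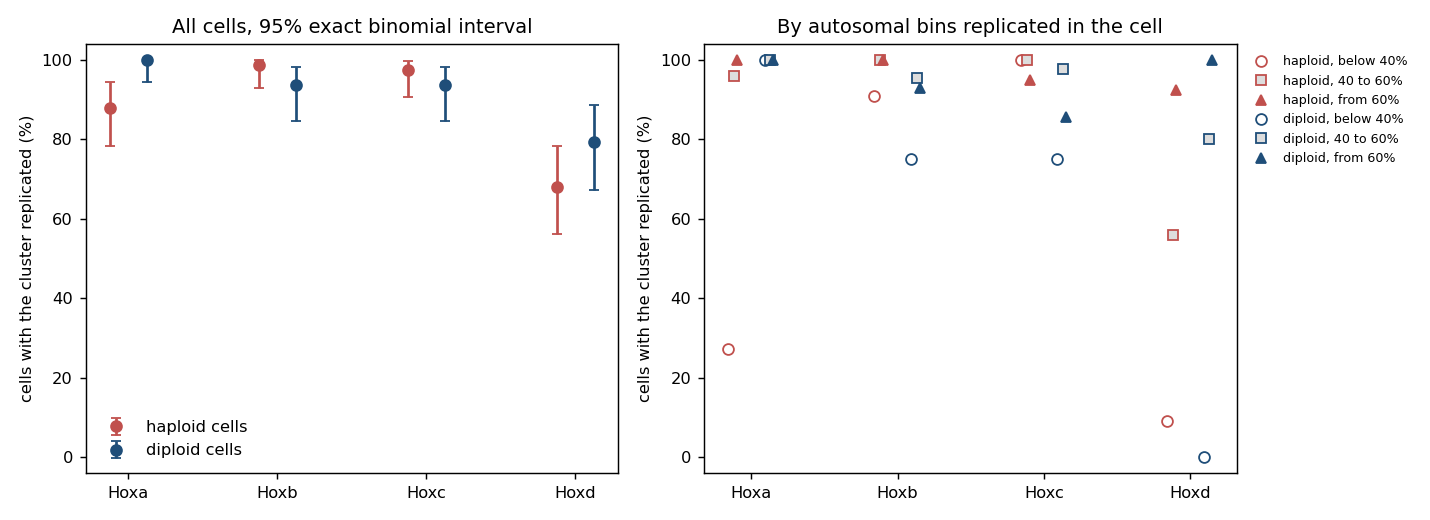
Percentage of haploid (red) and diploid (blue) cells with each cluster replicated; left, all 75 haploid and 63 diploid cells with exact binomial 95% intervals; right, cells grouped by the percentage of autosomal bins replicated. Haploid cells below 40% replicated Hoxa in 3 of 11 cells and Hoxc in 11 of 11, and Hoxd separates the progress groups in both lines.

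The spread of the scores was then set beside that of all bins. In diploid cells the SD of Hoxc was 0.583 (median over its bins), above 98.7% of all used autosomal bins, whose median SD was 0.398. The 500 kb on its left had an SD of 0.438 and the 500 kb on its right 0.490, against 0.410 over chromosome 15. Centering the chromosomes left the SD of Hoxc at 0.583, and in diploid cells of 40% to 60% it was 0.529, above 95.9% of bins. In haploid cells the SD of Hoxc was 0.457, above 62.6% of bins, and after centering 0.556, above 92.3%. In haploid cells of 40% to 60%, Hoxd was the cluster with the wide spread, with an SD of 0.575 above 95.7% of bins, while Hoxc had 0.264. The schedule of Hoxd falls in this range of progress, and its SD was not compared with bins of like schedule. Over all haploid cells the SD of Hoxd was 0.482, above 75.2% of bins, and after centering 0.418, above 24.8%. In diploid cells of 40% to 60% it was 0.409, above 64.1%. Over all diploid cells the clusters other than Hoxc had SDs of 0.416 for Hoxa, 0.370 for Hoxb and 0.424 for Hoxd.

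Scores of the lines were compared at like progress, in strata of 10 percentage points with at least 5 cells of each line, which held 39 haploid and 58 diploid cells between 40% and 70%. The haploid minus diploid difference (each value a median over the bins of a cluster) was -0.0633 for Hoxa (means 0.594 and 0.664), 0.390 for Hoxb (0.782 and 0.399), -0.0690 for Hoxc (0.505 and 0.561) and -0.171 for Hoxd (-0.00835 and 0.159). Hoxb had the largest difference, above 97.7% of all bins, and it exceeded the pooled SD over cells within strata of 0.338. None of the 30 bins reached the limit of 0.5. Of all 45112 bins, 0.607% were higher in haploid and 1.04% higher in diploid cells by that limit, so that 0 of 30 was close to this background. The whole of chromosome 11 was higher in haploid cells, with a median difference of 0.260. After centering each chromosome, the difference was 0.0686 for Hoxb, -0.0274 for Hoxa, -0.215 for Hoxc and -0.350 for Hoxd, the last at percentile 4.40 of all bins. In binarized states Hoxd stood at 62.7% of haploid against 85.7% of diploid cells at like progress, the largest difference of the clusters. The other clusters stood at 93.8% to 100% in both lines, which left little room for a difference. Bins of like schedule were not set beside Hoxd.

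The differences were followed through the strata. Hoxb was higher in haploid cells in all 3, at 0.900 ± 0.173 (SD, n = 6) against 0.524 ± 0.458 (SD, n = 10) for 40% to 50%, 0.853 ± 0.375 (n = 19) against 0.382 ± 0.330 (n = 35) for 50% to 60%, and 0.513 ± 0.263 (n = 14) against 0.275 ± 0.322 (n = 13) for 60% to 70%. Hoxd was lower in haploid cells in all 3, with differences of -0.191, -0.169 and -0.207, each smaller than the SD of either line. Hoxa changed direction, from a difference of -0.535 for 40% to 50% to 0.197 for 60% to 70%. The cells of both lines overlapped in every stratum for all 4 clusters.

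Homologs of the diploid cells were in the same state at Hoxa, Hoxc and Hoxd in 63 of 63 cells. A count of 0 of 63 cells allows a share of up to 4.76%, taking 3 counts as the limit and covering counting error only. At Hoxb 1 cell, diploid cell H10 at 53.8% replicated, had the 129 homolog replicated and the Castaneus homolog not, over all 9 bins. At 50% over both homologs it fell short of the limit of over 50%, so the counts above hold it as unreplicated at Hoxb. The unlike stretch ran for 29 bins, from 95550001 to 97000000 on chromosome 11, and the score of the cluster was -0.750. Over all bins the median was 0 unlike cells, the mean 0.548 and the highest 5, and 40.4% of bins had at least 1. In the authors' processing both homologs kept the state of the unparsed cell unless a segment was called asynchronous from parsed reads.

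The surroundings of the clusters differed. Hoxa was the earliest point of its window in both lines, at 0.734 h in diploid and 1.94 h in haploid cells within a window of 2 Mb on each side. The joint schedule of both lines fell past 5 h 1200 kb to its left and 650 kb to its right. By that schedule it lay in an early domain of 2200 kb (chr6:50850001-53050000). The left border was shallow, since the joint schedule reached only 5.13 h on that side of the window. In diploid cells alone no bin on that side was later than 4.41 h. Within 500 kb there were 8 protein-coding genes other than Hox genes. Evx1, a homeobox gene at the posterior end of Hoxa, was at 2.03 h.

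In the joint schedule Hoxb lay in a gene-dense early domain of 14500 kb, with 24 other protein-coding genes within 500 kb. In haploid cells no bin of its window was later than 2.68 h, and in diploid cells none later than 4.78 h. Its neighbour Skap1, an adaptor of T-cell signalling, was scheduled at 0.858 h, and Calcoco2, an autophagy receptor, and Ttll6, which modifies tubulin, at 1.99 h. All 3 were later in diploid than in haploid cells, as the cluster was.

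With its flank of 100 kb, Hoxc ended 894 kb before the end of chromosome 15, and the joint schedule crossed 5 h 600 kb to the right of that flank. In haploid cells alone no bin of the window passed 5 h, the latest being at 4.99 h. It had 31 other protein-coding genes within 500 kb, the most of the 4, but none within 100 kb. The 500 kb to its left were scheduled at 4.13 h and the 500 kb to its right at 2.09 h. Hoxd had 4 other protein-coding genes within 500 kb, the fewest. In haploid cells it was the latest part of its window, with 3 bins past 5 h, all within the cluster. In the joint schedule it was flanked by earlier DNA, at 4.43 h on the left and 4.21 h on the right. In diploid cells alone the region and the 500 kb to its left were both at 4.34 h, and the 500 kb to its right at 3.89 h. The latest bin of the diploid window lay outside the region, at 4.623 h, against 4.615 h for the latest bin inside. The nearest crossing of 5 h in the joint schedule was 2550 kb away. Its neighbours Lnpk, which shapes the endoplasmic reticulum, Evx2, a homeobox gene, and Mtx2, of mitochondrial import, were at 4.42, 4.69 and 4.62 h. The gene models Gm28308 and 5730596B20Rik in Hoxa and Gm28230 in Hoxd start in bins of Hox genes and take their times.

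Copy number shifts inside the clusters were counted in single cells. A change of state within the region was found in 5 cells at Hoxa (3.62%), 6 at Hoxb (4.35%), 6 at Hoxc (4.35%) and 17 at Hoxd (12.3%). Over all stretches of 7 bins of the autosomes 10.97% of cells had a shift, and over stretches of 9 bins 14.5%. In cells of 40% to 60% without a shift inside, the stretch of like state around the cluster had a median length of 3225 kb at Hoxa, 6050 kb at Hoxb, 9450 kb at Hoxc and 8150 kb at Hoxd.

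Base composition differed between the clusters and their flanks. The bins of the clusters, without flanks, had a mean of 25.3 CG dinucleotides per kb at Hoxa, 18.3 at Hoxb, 18.9 at Hoxc and 23.8 at Hoxd, against a median of 7.80 over all used bins. The flanks had 10.9, 12.4, 9.19 and 7.45. GC content was 48.7%, 48.1%, 47.8% and 47.4%, against a median of 41.4%. Repeats covered 17.6% of Hoxa, 26.2% of Hoxb, 17.5% of Hoxc and 18.7% of Hoxd, against 30.7%, and 7 of the 14 bins lay below the 5th percentile of all bins. The bins of Hoxd without flanks were close to those of Hoxa in CG and repeats. The flanks of Hoxd had the lowest GC content of the 4, at 39.1%, and the fewest CG, at 7.45 per kb. A link of composition with timing was not tested.

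**Figure D4:**
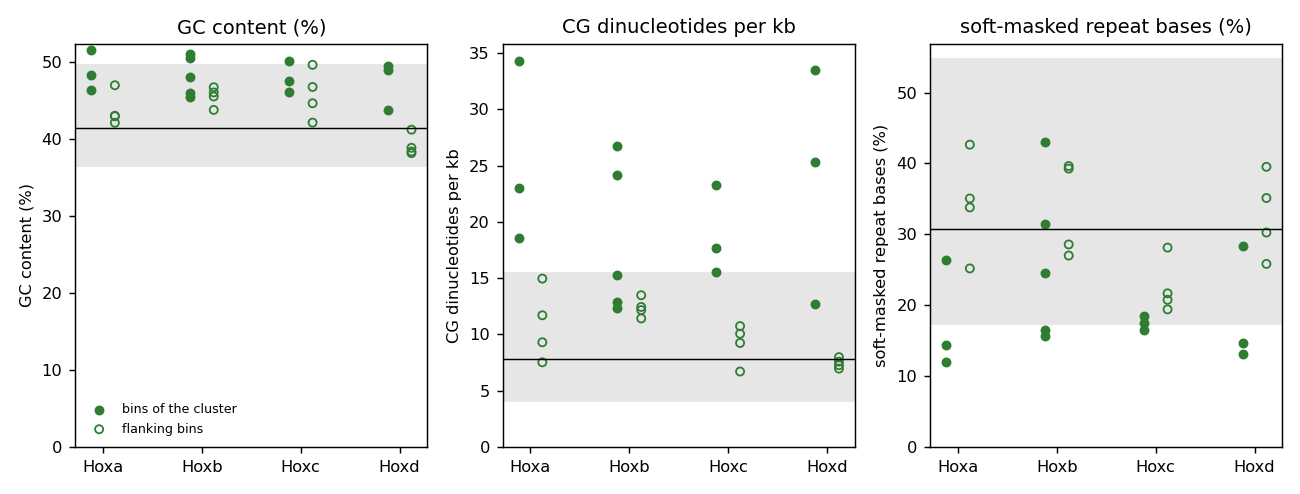
GC content, CG dinucleotides per kb and repeat content of the bins of each cluster (filled) and of its flanking bins (open); the line is the median and the grey band the 5th to 95th percentile of 45112 bins. Most cluster bins lie above the band for CG dinucleotides. The cluster bins of Hoxd overlap those of Hoxa, and the flanking bins of Hoxd are the lowest in GC content.

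Genes that act with or upon Hox genes were placed on the same schedule, on which 80.2% of all protein-coding genes fell in the first 5 h, called early, and 40.6% in the first 2 h. The ParaHox and Cdx genes, sister genes of the Hox clusters and regulators of them, were all early, 5 of 5 in the first 2 h, from Pdx1 at 0.399 h to Gsx2 at 1.73 h. The genes of the MLL complex, which keeps Hox genes active, were in the first 5 h in 7 of 7, with a median of 0.962 h. Of 21 Polycomb genes, which keep Hox genes silent, 19 had a value and all 19 were in the first 5 h, with a median of 2.04 h and Phc1 the latest at 4.40 h. The TALE homeodomain cofactors of Hox proteins were mixed, 6 of 9 early, with Pknox1 at 0.621 h and Meis2 at 5.04 h. Other homeobox clusters were the latest list, 9 of 14 early with a median of 3.65 h. Among them were Dlx1 and Dlx2 at 1.83 h, Dlx5 and Dlx6 at 7.12 h and Irx1 at 7.64 h. This list also counts Evx1 and Evx2, which lie in the Hoxa and Hoxd regions themselves. Neighbouring genes of a list, such as these Dlx pairs or Gsx1, Pdx1 and Cdx2, are not independent values. Hoxd was later than the median of each of these lists.

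The genes of other chromosomes whose state was most often that of a cluster were listed last. For Hoxa, Arid5b had the same state in 99.3% of the 138 cells, Arhgef4 in 97.8% and Ndufc1 in 97.1%. For Hoxb these were Wfdc8, Wfdc6b and Wfdc16, which share a bin, each in 97.8%. For Hoxc they were Ttc27 in 97.8% and Csf3r and Mrps15, which share a bin, in 97.1%. For Hoxd they were Gnaz in 87.7%, Bcr in 87.0% and Rsph14 in 86.2%. Over all bins the median was 71.0% for Hoxa, 67.4% for Hoxb, 65.2% for Hoxc and 70.3% for Hoxd, and a cluster replicated in nearly every cell shares its state with many early bins.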

How the data were processed

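The authors mapped reads to mm10 with Bowtie 2, removed duplicates with SAMtools, counted reads in 50 kb windows, divided by G1 and G2 control cells, centered and scaled each cell and median smoothed it over 15 windows. The deposited smoothed values are a score without fixed unit. The deposited binarized states (0 unreplicated, 1 replicated) came from segmenting these profiles, per homolog in diploid cells. Versions are not given in the sources used here. Bedtools is named in the submitters' processing notes.

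Of 188 labelled cells, 75 haploid and 63 diploid S-phase cells had values; 11 haploid and 33 diploid S-phase cells and 6 G1 cells were not analysed here. No label matched 24 columns, of 8 diploid cells, and these were not used. The bins kept had a state in all cells and a score in 50% of cells or more, met by both lines. A shift is a change of state between neighbouring bins. Scores were compared in strata weighted by n1n2/(n1 + n2). Functions were tested on simulated data. Genes came from GENCODE vM21, composition from GRCm38.p6 with soft-masked repeats. Python 3.11.15 with numpy 2.4.6, pandas 2.3.3, scipy 1.17.1 and matplotlib 3.10.9 was used. Alternatives changed the profile, flanks, state call, strata, scaling and cells.

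Named genes were the Hox genes, protein-coding genes within 100 kb, the genes of 5 fixed lists, and per cluster the 3 protein-coding genes of other chromosomes with the most like states. The clusters, lists and alternatives were chosen with earlier results of these data known. Some genes of the lists are not reported here.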

Additional observations from a re-analysis of the deposited data

How the results depend on the processing

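Among 118 alternatives of 27 results, 108 stayed within the spread over cells, the binomial interval or 1.5 times of the value, and 10 moved more. For schedules and score differences the limit was 1 SD over cells, which is wide. Hoxb at 0.234 h in haploid and 2.72 h in diploid cells alone stayed within it. So did its score difference of 0.0686 after centering, against 0.390. The count of 108 is therefore not a measure of stability. The sign changed in 1 of the 108, the haploid minus diploid score of Hoxa, which was smaller than its spread. It was -0.0633, and 0.0280 without haploid plate row A. Without that row the stratum of 40% to 50%, where the Hoxa difference was -0.535, held fewer than 5 haploid cells and dropped out. These values therefore rest on different strata. Calling a cluster replicated by a median score above 0 gave 88% of haploid and 84.1% of diploid cells for Hoxc, and 53.3% and 65.1% for Hoxd. Requiring all bins gave 92.1% of diploid cells for Hoxa. Leaving out haploid plate row A, chosen after seeing the data, gave 95.3% of haploid cells for Hoxa and 100% for Hoxb. With centered chromosomes Hoxb was scheduled at 2.87 h. With 200 kb on each side 1 cell had unlike homologs at Hoxd. Against the schedule of a cell's own line, also chosen after seeing the data, Hoxa was unreplicated in 2.31% of cells over 1 h behind. The cause was not tested. The schedule from shares of cells put Hoxa at 2.51 h, after the other early clusters.

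The alternatives run gave no turn for Hoxb, for Hoxa in diploid cells alone and for Hoxc in haploid cells alone. Dropping 3 diploid cells, 1 from each pair of similar profiles, moved no share past its interval. No paired analysis was possible because a well position names a cell and pairs no cells between the lines. Read depth per cell is unknown, 1 plate per line gives no replicate of a line, few cells lay below 40%, and smoothing over 750 kb exceeds the clusters.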
